A study of Sus scrofa with 4 samples.

Results

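The deposited FPKM values included 153 rows of the biotype miRNA, which are the genes of miRNA hairpins measured in rRNA-depleted total RNA, among 22944 rows with FPKM and 31567 rows in all. Every row of that biotype was taken, and a host gene was recorded where a protein-coding gene or a lncRNA of the same strand contained the hairpin. All 153 matched the reference annotation of the pig genome (Sscrofa11.1) by symbol, start and end. The annotation holds 315 miRNA genes, of which 162 had no row.

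Subcutaneous preadipocytes were taken from 3 male Chinese Erhualian piglets aged 5 days and grown to confluence (D0). They were then given a cocktail of dexamethasone, 3-isobutyl-1-methylxanthine and insulin for 2 days (D2) and insulin for the next 2 days (D4), before a return to growth medium until D8. D0 is the untreated stage, and all 4 stages share the breed, the sex, the piglets and the culture. RNA of the 3 piglets was mixed in equal parts to make 1 strand-specific library per stage. Without replicates, a difference between stages cannot be told apart from a difference between libraries, and no p-value is given.

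A miRNA is first transcribed as part of a long primary transcript, which may also be the transcript of a protein-coding gene. DROSHA and DGCR8 cut the hairpin out of that transcript in the nucleus, XPO5 exports it, and DICER1 trims it to the short mature miRNA, which an Argonaute protein carries to its target mRNAs. Several hairpins often lie on one primary transcript. A library of total RNA reads the primary transcript and the hairpin rather than the mature miRNA, so the values below are not levels of mature miRNAs.

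FPKM counts the fragments on a gene per kilobase of its length, scaled by the library total. For all 153 miRNA genes, FPKM multiplied by the hairpin length gave whole fragments, with library totals of 75387428, 54987801, 74358922 and 54128151 at D0, D2, D4 and D8. A single fragment on 80 bases, the median hairpin length, was worth 0.166 FPKM, 0.227, 0.168 and 0.231 at D0, D2, D4 and D8. A gene with a 0 may thus have held up to 3 fragments per such library, that is 0.497 to 0.693 FPKM. All intervals below are 95% intervals, and like these floors they cover counting error only. Variation among piglets and among library preparations was not measured.

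The miRNA genes lay in different kinds of places. A protein-coding host of the same strand contained 68 (44.4%) and a lncRNA host 9 (5.88%), so that 77 hairpins shared 68 hosts. A gene on the opposite strand alone contained 10, and 66 (43.1%) lay in no listed gene of either biotype. Neighbours of the same strand within 10 kb formed 21 clusters with 52 members, the largest being the 6 hairpins from MIR17 to MIR92A-1. Whether a hairpin lay in an exon or an intron was not determined here.

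Most of these genes were thinly covered. The median number of fragments over the 4 libraries was 15, and 62 genes had under 10. Values above 0 were found for 90, 100, 117 and 102 genes at D0, D2, D4 and D8, with 62 genes above 0 in all 4 libraries. Reliably expressed genes, with FPKM of at least 1 in at least 3 libraries, numbered 52 (34.0%), against 56.8% of the protein-coding genes and 6.74% of the lncRNAs listed under that biotype. Of the 10 hairpins opposite another gene 8 were reliably expressed, of the 66 without a containing gene 24, of the 68 with a protein-coding host 17, and of the 9 with a lncRNA host 3.

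**Figure D1:**
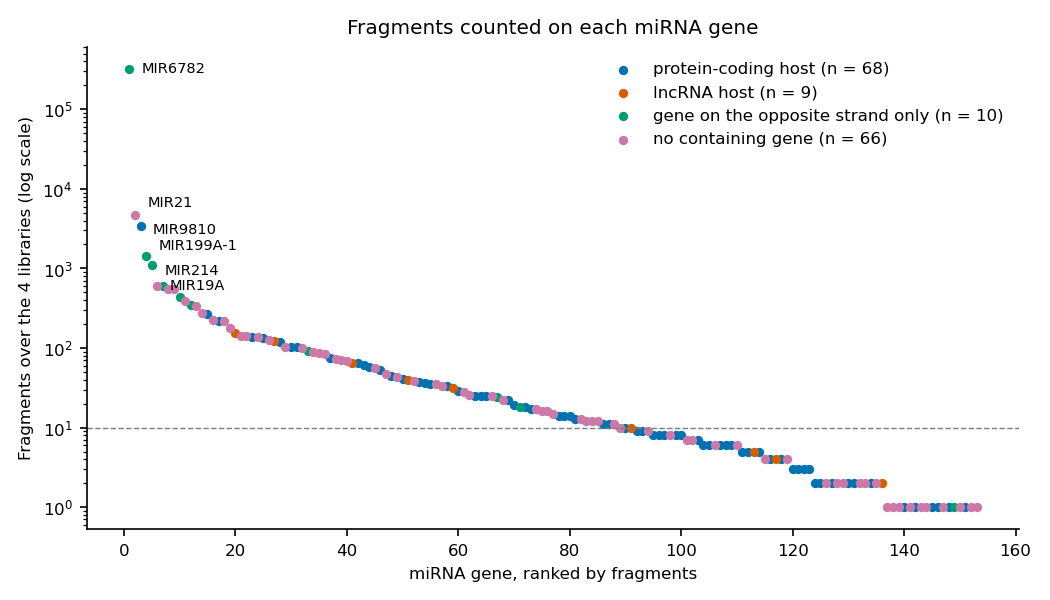
Fragments over the 4 libraries on each of the 153 miRNA genes (log y axis), ranked from the most to the fewest, with colours for the kind of place the hairpin lies in. The dashed line marks 10 fragments. MIR6782 stands far above the rest with 321805 fragments, and 17 genes at the right end have 1 fragment each.

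A single gene held most of the fragments. MIR6782, on an unplaced scaffold (40305 to 40379, plus strand), had an FPKM of 18199, 19036, 15315 and 13545 at D0, D2, D4 and D8. That was 94.7%, 94.99%, 94.1% and 92.5% of all fragments on miRNA genes at D0, D2, D4 and D8. It ended 2525 bases before RN18S, the gene of the 18S ribosomal RNA, on the same strand. RN18S itself had an FPKM of 424, 243, 211 and 287 at D0, D2, D4 and D8, respectively. The MIR6782 row thus lay beside a ribosomal RNA gene in libraries from which rRNA had been removed, and the part of ribosomal precursor RNA in its values was not tested. In CPM, the count scaled by the library total, the other miRNA genes held 76.9, 75.3, 72.6 and 82.2 CPM at D0, D2, D4 and D8, a nearly level sum.

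Next in order were MIR21 and MIR9810, which together held a large part of the remaining fragments in each library. MIR21 (chr12:36065267-36065358, plus strand, no containing gene), a miRNA abundant in many stromal and proliferating cells, had an FPKM of 216, 206, 156 and 211 at D0, D2, D4 and D8. It was lowest at D4 and close to level in the other libraries. MIR9810 (chr4:83070363-83070457, plus strand), inside MPC2, a subunit of the mitochondrial pyruvate carrier, had 129, 146, 121 and 179. Its host MPC2 had 32.0, 33.6, 41.9 and 58.6, and both were highest at D8. Without MIR6782, MIR21 and MIR9810 the sum was 44.7, 42.5, 46.7 and 45.7 CPM at D0, D2, D4 and D8.

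Below this level sum, single genes varied more than genes in general. Among the 51 reliably expressed miRNA genes above 0 in all libraries, the median ratio of the highest to the lowest FPKM was 2.55, against 1.67 over all features reliably expressed. The ratio was under 2 for 33.3% of them, compared with 67.2% of all features. Their low counts go with this difference, since the median reliably expressed miRNA gene had 124 fragments over the 4 libraries, and its part was not tested. The stage of the highest value was D0 for 12 of the 52 genes (23.1%), D2 for 15 (28.8%), D4 for 11 (21.2%) and D8 for 14 (26.9%). Of all reliably expressed features, 36.4%, 17.3%, 36.4% and 9.84% were highest at these stages.

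A difference of at least 2-fold was counted on log2(FPKM + 0.01), and each count is set beside the share of all 9929 reliably expressed features that passed the same rule. At D2 vs D0, 9 of 52 miRNA genes (17.3%) were at least 2-fold higher and 9 lower, with backgrounds of 7.06% and 10.7%. At D4 vs D0, 10 were higher and 8 lower (background 10.7% and 9.57%). At D8 vs D0, 13 were higher and 6 lower (background 3.87% and 4.82%). Both directions thus exceeded the background by this count in the 3 comparisons with D0, which share the D0 library. Low fragment counts go with this excess as well, and their part was not tested. Counting intervals without 0 were found for 7 of the 9 rises and 9 of the 9 falls at D2, for 6 of 10 and 8 of 8 at D4, and for 10 of 13 and 5 of 6 at D8. The background was not limited to such intervals. At D4, 6 of 52 genes were such rises, where 10.7% of all features were higher without that limit.

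Between neighbouring stages, 11 miRNA genes were at least 2-fold higher and 3 lower at D4 vs D2 (background 4.53% and 1.49%). At D8 vs D4, 9 were higher and 7 lower (background 4.75% and 10.4%). This split was 12 higher and 5 lower when the libraries were scaled by the median ratio over all features. It was 10 higher and 7 lower when they were scaled by the fragments on protein-coding genes. The median log2 ratio of the 52 genes was 0.05 at D2 vs D0, 0.02 at D4 vs D2, 0.12 at D8 vs D4, 0.11 at D4 vs D0 and 0.11 at D8 vs D0. Over all features it was -0.03, 0.09, -0.21, 0.05 and -0.18 in the same order.

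The filter on FPKM removed genes that were high in 1 or 2 libraries. A counting rule was therefore added after the data had been seen, for genes with at least 10 fragments in one library of the pair, a ratio of at least 2 and an interval without 0. The rule favours a difference in genes that passed the fragment minimum only through the library where they were high. These counts are therefore given as a description. At D2 vs D0, 9 of 61 miRNA genes were higher and 19 (31.1%) lower, against 14.0% and 19.6% of all features. At D4 vs D0, 16 of 71 were higher and 15 lower (background 19.9% and 17.0%). At D8 vs D0, 10 of 61 were higher and 11 lower (background 10.8% and 13.6%). The share of falls at D2 stood above that of all features, and the other shares lay closer to theirs. Many of the genes lower at D2 passed the fragment minimum through D0 alone, and several share a cluster. No result about the miRNA genes is therefore drawn from that share.

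**Figure D2:**
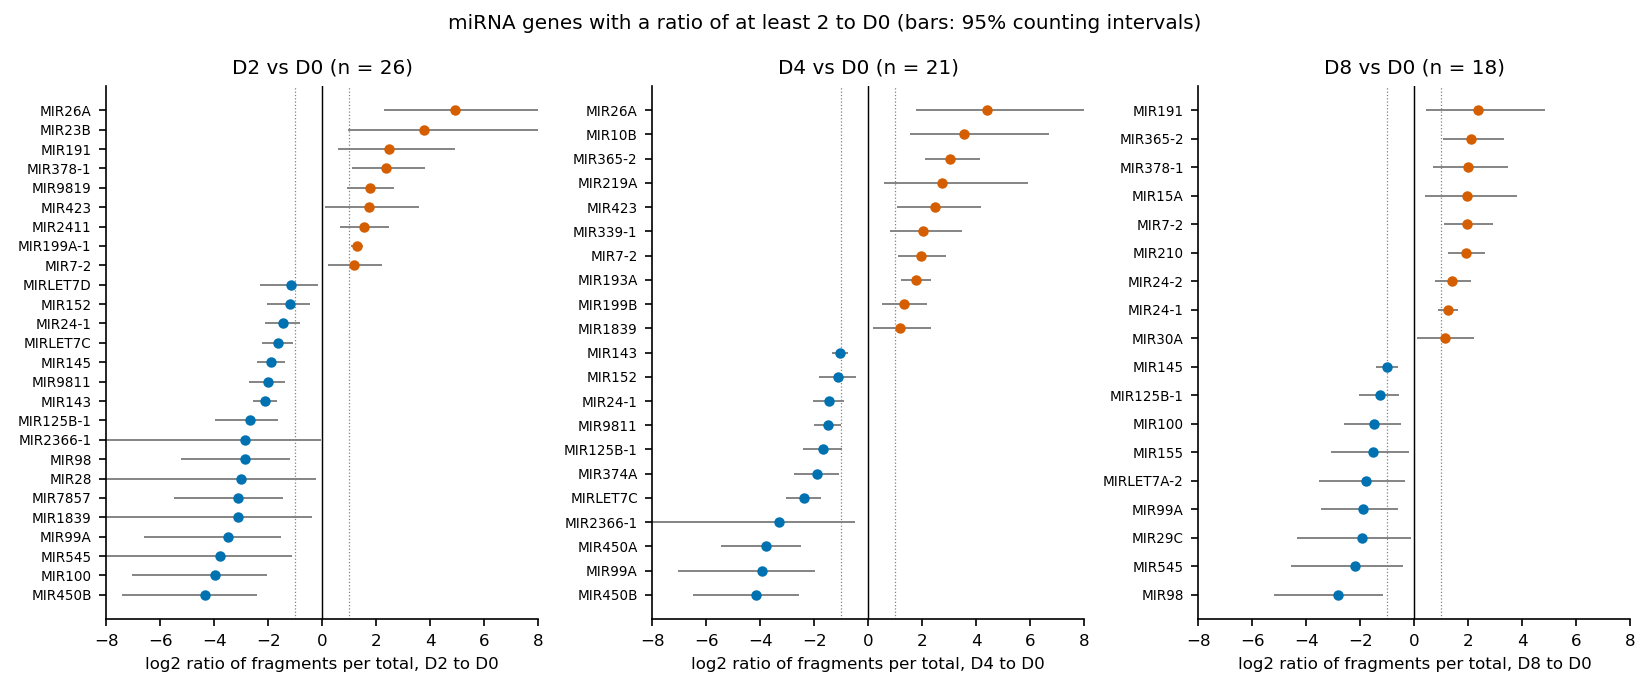
log2 ratio of fragments per library total (x axis) of D2, D4 and D8 to D0 for the miRNA genes that met the counting rule and had fragments in both libraries, which are 26, 21 and 18 genes. Orange points are higher and blue points lower than at D0, bars are 95% counting intervals drawn to the edge of the axis, and dotted lines mark a ratio of 2. At D2, falls outnumber rises, and the intervals of many genes are wide.

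MIR143 and MIR145 were both lower at D2 than at D0. They lie 1308 bases apart on chr2 (150578738-150578817 and 150580126-150580211, plus strand, opposite IL17B), are known from smooth muscle cells, and have been studied in adipocyte differentiation. MIR143 had an FPKM of 48.1, 11.1, 23.4 and 28.9 at D0, D2, D4 and D8. MIR145 had 30.4, 8.25, 20.3 and 15.0. Both were highest at D0 and lowest at D2, and neither regained its D0 level by D8. At D2 vs D0, MIR143 was 4.32-fold lower (3.18 to 5.97) and MIR145 3.68-fold lower (2.60 to 5.34). At D4 vs D2, they were 2.10-fold (1.5 to 2.97) and 2.47-fold (1.71 to 3.62) higher. At D8 vs D4, their log2 ratios had opposite signs, 0.30 (-0.06 to 0.66) for MIR143 and -0.43 (-0.88 to -0.0049) for MIR145, and neither reached 2-fold.

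Genes of the contractile cytoskeleton were low at D2 as well. ACTA2, smooth muscle actin, had an FPKM of 2907, 324, 225 and 2762 at D0, D2, D4 and D8, and TAGLN had 2767, 297, 277 and 1987. Unlike the miRNA pair, these genes were lowest at D4. The sum of the 5 smooth muscle markers was 6205, 664, 509 and 4810, of which 4 were at 1 or more in each library and MYH11 was between 0.29 and 0.63. ACTA2 and TAGLN carry that sum, and DES and CNN1 were further below D0 at D8. DES, an intermediate filament of muscle, had 436, 37.7, 4.05 and 35.7, and CNN1, a calponin, had 94.3, 4.22, 2.39 and 24.2. In a pooled culture, fewer cells of a type and less RNA per cell cannot be told apart, and the part of contractile cells in the values of MIR143 and MIR145 was not tested.

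MIR199A-1 and MIR214 were the most abundant cluster after the 3 leading genes. They lie 5681 bases apart on chr9 (114533783-114533858 and 114527992-114528101, minus strand, opposite DNM3), and both are typical of mesenchymal cells. MIR199A-1 had an FPKM of 47.0, 115, 73.8 and 61.3 at D0, D2, D4 and D8. MIR214 had 38.1, 35.4, 40.8 and 40.3. MIR199A-1 stood out at D2, where it was 2.45-fold higher than at D0 (2.11 to 2.86). MIR199A-2, opposite DNM2 on chr2, had 15.6, 19.8, 16.8 and 16.4, and MIR199B, opposite DNM1 on chr1, had 3.23, 3.69, 8.0 and 3.50. MIR199B was 2.48-fold higher at D4 than at D0 (1.40 to 4.56). These genes yield closely related mature miRNAs, and MIR199A-1 and MIR199A-2 were highest at D2 but MIR199B at D4.

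The genes MIR24-1 and MIR24-2, which yield the same main mature miRNA from different chromosomes, had the same order of stages. MIR24-1 (chr2:65308453-65308524, plus strand, no containing gene) had an FPKM of 18.6, 6.82, 6.72 and 43.6 at D0, D2, D4 and D8. MIR24-2 (chr10:27079417-27079496, minus strand, inside C10H9orf3) had 5.14, 2.96, 2.86 and 13.6. Both were highest at D8, with lower values at D2 and D4 than at D0. At D8 vs D4, MIR24-1 was 6.49-fold higher (4.51 to 9.57) and MIR24-2 4.77-fold higher (2.74 to 8.72), and at D8 vs D0 they were 2.34-fold (1.82 to 3.03) and 2.65-fold (1.69 to 4.24) higher. The host of MIR24-2 was at 1.42, 0.859, 1.38 and 1.68.

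The other members of these clusters had fewer fragments and other courses. MIR23A, which lies within 408 bases with MIR27A and MIR24-1, had 13, 7, 10 and 3 fragments at D0, D2, D4 and D8, and MIR27A had 1, 4, 0 and 1. MIR24-1 held 89.5% of the fragments of that cluster. On chr10, MIR27B had 6, 7, 13 and 11 fragments and MIR23B had 1, 10, 4 and 2. In FPKM, MIR27B was highest at D8 and the other 3 partners at D0 or D2.

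In the cluster from MIR17 to MIR92A-1, known from dividing cells, coverage was also uneven. The 6 hairpins lie within 782 bases of chr11 (60734656-60735437, plus strand), with gaps of 40 to 88 bases. MIR19A had 131, 127, 227 and 120 fragments at D0, D2, D4 and D8. MIR18A had 104, 59, 150 and 81. MIR19B-1, in the same stretch, had 0, 1, 1 and 2, and MIR17 had 0, 2, 21 and 5. Summed over the 6 genes, the level was 3.52, 3.86, 5.78 and 4.12 CPM at D0, D2, D4 and D8. The sum was thus highest at D4, with a log2 ratio to D0 of 0.72 (0.49 to 0.94), and MIR19A alone held 53.5% of its fragments.

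Some of the largest falls belonged to clusters that were present at D0 and nearly lost at D2 and D4. MIR450A, MIR450B, MIR450C and MIR542 lie within 1090 bases of the X chromosome (chrX:110381587-110382676, minus strand). MIR450A had 70, 0, 5 and 29 fragments at D0, D2, D4 and D8, and MIR450B had 55, 2, 3 and 23. MIR450C had 26 at D0 and 0 in the other libraries. The low values at D2 and D4 were followed by a partial return at D8 for MIR450A and MIR450B but not for MIR450C. At D2 vs D0, MIR450A was at least 13.5-fold lower by its counting interval, and MIR450B was 20.1-fold lower (5.30 to 170). MIR542 had 0, 0, 8 and 4 fragments, all of them at D4 and D8.

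Some clusters of the MIR99, MIR100, MIR125 and let-7 genes were also low at D2 and D4. MIRLET7C (chr13:181303209-181303302, plus strand), of the let-7 family that restrains growth and stem cell programmes, had 137, 32, 26 and 74 fragments at D0, D2, D4 and D8. Its neighbour MIR99A had 31, 2, 2 and 6. On chr9, MIR125B-1 (49109435-49109514, minus strand) had 71, 8, 22 and 21, and MIR100 had 43, 2, 0 and 11. All 4 were highest at D0, and MIRLET7C and MIR100 met the counting rule for a rise between D4 and D8. In FPKM, MIRLET7C went from 19.3 to 6.19, 3.72 and 14.5, which was 5.20-fold lower at D4 than at D0 (3.40 to 8.24) and 3.91-fold higher at D8 than at D4 (2.47 to 6.37). MIR125B-1 went from 11.8 to 1.82, 3.70 and 4.85 and was 6.47-fold lower at D2 than at D0 (3.11 to 15.6). Related clusters had other courses. MIRLET7A-2, MIRLET7F-2 and MIRLET7D on chr3 summed to 1.47, 1.16, 1.40 and 1.40 CPM, and this sum was about level. Its members were not all level. MIRLET7A-2 was 3.45-fold lower at D8 than at D0 (1.29 to 11.6), and MIRLET7D was 2.25-fold lower at D2 than at D0 (1.12 to 4.93). On chr6, MIR125A had 13 fragments at D4 and MIR99B had 7 at D0, with 0 in the other libraries.

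The genes around these hairpins were weakly expressed and were also low at D2 and D4. LOC106508546, the host of MIRLET7C and MIR99A, had an FPKM of 0.648, 0.113, 0.193 and 0.778 at D0, D2, D4 and D8. LOC106504205, the lncRNA around MIR125B-1, had 1.92, 0.192, 0.213 and 0.904. Both hosts were lower at D2 and D4 than at either end of the course.

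Of the 9 let-7 family genes 5 were reliably expressed. At D2 vs D0, MIRLET7C and MIRLET7D were at least 2-fold lower and none was higher, where 10.7% of all features were lower and 7.06% higher. The median log2 ratio of the 5 was -0.51, against -0.03 over all features. MIRLET7D, on chr3 with MIRLET7A-2 and MIRLET7F-2, had an FPKM of 4.70, 2.08, 5.74 and 2.89, with its lowest values at D2 and D8. MIR98, inside HUWE1 on the X chromosome, had 30, 3, 0 and 3 fragments at D0, D2, D4 and D8, whereas HUWE1 was at 8.23, 8.93, 11.2 and 6.16. Summed over the 9 genes, the level was 4.36, 2.20, 2.29 and 3.53 CPM at D0, D2, D4 and D8.

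**Figure D3:**
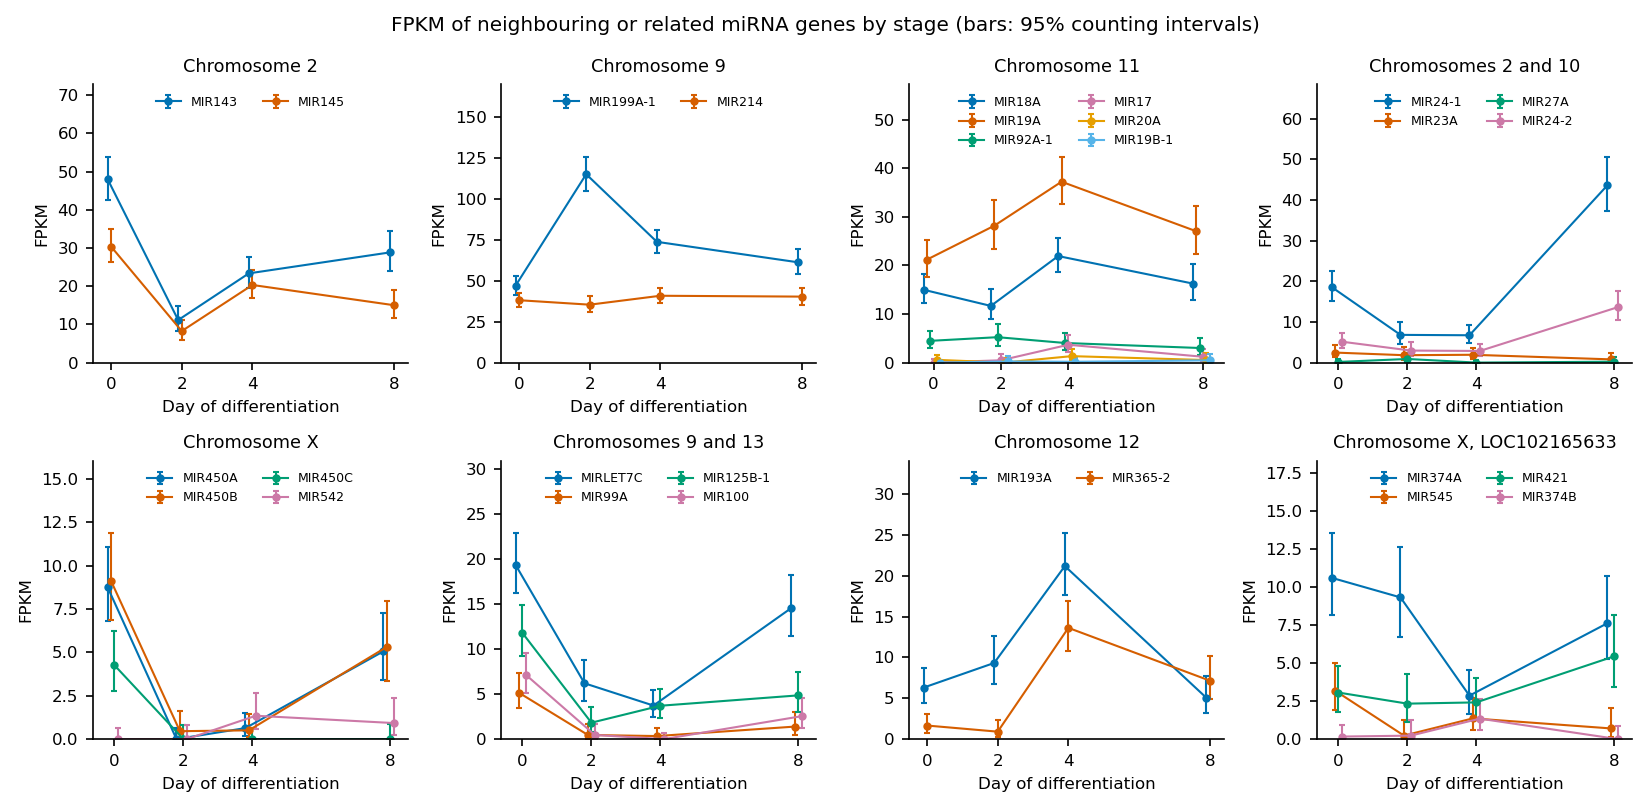
FPKM (y axis, from 0) by day of differentiation (x axis) for hairpins that lie near each other or are related in sequence, in 8 panels. Points are the single library of each stage and bars are 95% counting intervals. MIR143, MIR145, the MIR450 genes, MIRLET7C, MIR99A, MIR125B-1 and MIR100 are highest at D0, MIR24-1 and MIR24-2 at D8, MIR193A and MIR365-2 at D4.

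MIR193A and MIR365-2 were highest at D4. They lie 12164 bases apart on chr12 (43336969-43337048 and 43324725-43324804, minus strand), and the miRNAs of these families are known from adipocytes. MIR193A had an FPKM of 6.30, 9.32, 21.2 and 5.08 at D0, D2, D4 and D8. MIR365-2 had 1.66, 0.909, 13.6 and 7.16. After their shared peak, the first returned to about its D0 level at D8 and the second did not. At D4 vs D0, MIR193A was 3.36-fold (2.32 to 4.97) and MIR365-2 8.21-fold (4.24 to 17.8) higher, and at D8 vs D0 MIR365-2 remained 4.32-fold higher (2.06 to 9.87).

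Adipocyte genes rose over the same days. The sum of ADIPOQ, FABP4, PLIN1, LPL and CEBPA was 118, 456, 1659 and 1985 at D0, D2, D4 and D8, and all 5 were at 1 or more in each library. ADIPOQ, PLIN1, LPL and CEBPA were highest at D4, as were MIR193A and MIR365-2, and FABP4 was highest at D8. Markers of the stromal cells summed to between 639 and 986. Those of leukocytes stayed between 0.176 and 0.344, with none of the 3 found at 1 or more. Those of endothelial cells summed to between 1.16 and 2.59, of which PECAM1 alone was at 1 or more, and those of skeletal muscle to between 0.104 and 0.507. HBB, the erythroid marker found, was at 0 except at D4, where it was 0.271.

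MIR210, a miRNA known to respond to low oxygen, was highest at D8. This gene (chr2:335271-335346, minus strand) had an FPKM of 4.54, 2.87, 6.19 and 17.0 at D0, D2, D4 and D8, from 26, 12, 35 and 70 fragments. At D8 it was 3.75-fold higher than at D0 (2.36 to 6.13). MIR7-2, inside HNRNPK on chr10, had 1.83, 4.17, 7.03 and 7.12 and was 3.85-fold higher at D4 than at D0 (2.15 to 7.33), while HNRNPK was at 135, 102, 108 and 121.

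MIR378-1 lies inside PPARGC1B, a coactivator of mitochondrial genes (chr2:150825865-150825944, plus strand). It had an FPKM of 1.16, 5.91, 1.85 and 4.62 at D0, D2, D4 and D8, from 7, 26, 11 and 20 fragments. PPARGC1B had 0.311, 0.795, 1.24 and 0.297. Both were higher at D2 than at D0, but the host was highest at D4 and the miRNA gene at D2. MIR378-1 was 5.09-fold higher at D2 (2.15 to 13.9) and 3.98-fold higher at D8 (1.62 to 11.1) than at D0.

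MIR26A (chr5:23112744-23112827, minus strand) had 1, 22, 21 and 9 fragments at D0, D2, D4 and D8. It was 30.2-fold higher at D2 than at D0, but with 1 fragment at D0 the interval ran from 4.88 to 1245. Its host CTDSP2, a phosphatase of RNA polymerase II, was at 43.8, 38.8, 40.9 and 36.0 and thus nearly level. MIR455, inside the collagen gene COL27A1 on chr1, had 0, 0, 28 and 1 fragments. COL27A1 had an FPKM of 0.751, 1.45, 6.16 and 1.33, so both were highest at D4. There MIR455 was at least 7.20-fold higher than at D0 by its counting interval.

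Fragments of a host transcript that cover a hairpin cannot be told apart from those of the miRNA precursor. Among the 77 hairpins inside a host, 13 were reliably expressed together with their host. The median of their mean FPKM was 3.07, against 39.1 for the hosts, and the hairpin had the higher mean FPKM in 3 of the 13 pairs. Hairpins spanned 54 to 110 bases, and how so short a span affects FPKM beside that of a longer host was not tested. Another 42 had a reliably expressed host but were not reliably expressed themselves, 7 were reliably expressed in a host that was not, and 15 belonged to neither group. The 13 pairs moved in the same direction 6 times at D2 vs D0, 3 times at D4 vs D2, 8 times at D8 vs D4, 7 times at D4 vs D0 and 8 times at D8 vs D0. The log2 ratio of the host lay inside the counting interval of the hairpin in 9, 9, 9, 7 and 6 of the 13 pairs, respectively. For hairpins that met the counting rule, the host moved the same way in 11 of 17 at D2 vs D0, 4 of 6 at D4 vs D2, 7 of 8 at D8 vs D4, 9 of 14 at D4 vs D0 and 5 of 11 at D8 vs D0.

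**Figure D4:**
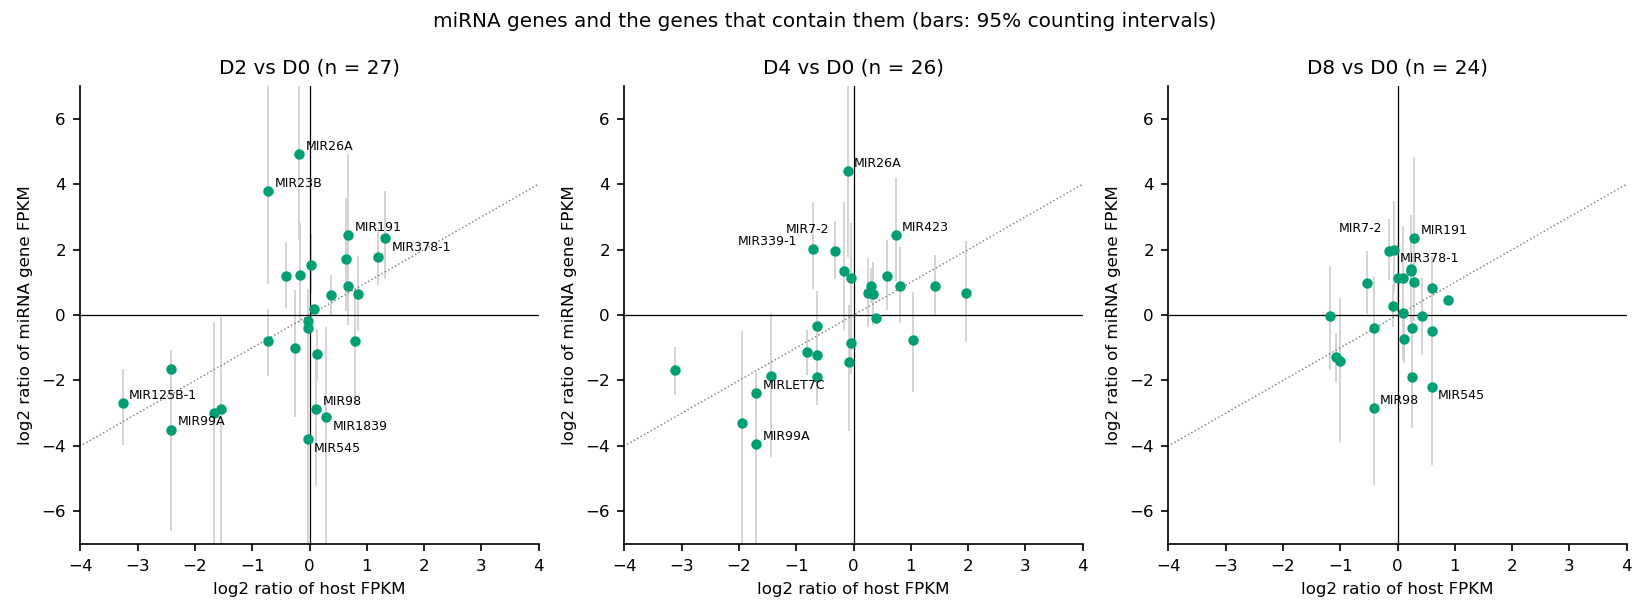
log2 ratio of FPKM of the host gene (x axis) and of the miRNA gene (y axis) for D2, D4 and D8 against D0, with 27, 26 and 24 pairs that had at least 10 fragments on the hairpin in one library and some in both. Bars are 95% counting intervals of the hairpin, drawn to the edge of the axis, and the dotted line marks equal ratios. MIR99A and its host are both low at D2 and at D4, and MIR26A stands far above its level host in both panels.

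Of 29 miRNA genes listed for adipocyte differentiation and lipid metabolism, 18 had a row and 9 were reliably expressed. At D4 vs D0, 4 were at least 2-fold higher and 2 lower, at D8 vs D0 the counts were again 4 and 2, and at D2 vs D0 they were 2 and 2. Of all features, 10.7% were higher and 9.57% lower at D4, 3.87% and 4.82% at D8, and 7.06% and 10.7% at D2. The median log2 ratio of the 9 was 0.67 at D4, -0.04 at D8 and -0.07 at D2 vs D0, beside 0.05, -0.18 and -0.03 over all features. The let-7, MIR30 and MIR17 to MIR92A-1 genes were first planned for this list but were counted apart. Their 5, 1 and 3 reliably expressed genes had median log2 ratios of -0.08, 0.67 and 0.55 at D4 vs D0. The median of the 9 thus depends on how the list was drawn. Among the 9, MIR193A, MIR365-2, MIR26A and MIR27B were the 4 higher genes at D4, and MIR143 and MIR155 the 2 lower ones. MIR27B, whose mature miRNA is known to oppose adipocyte differentiation, had an FPKM of 0.995, 1.59, 2.19 and 2.54 at D0, D2, D4 and D8, and the interval of its ratio at D4 spanned 1.

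Of 28 genes listed for contractile and matrix functions, 25 had a row and 12 were reliably expressed. At D2 vs D0, MIR199A-1 was at least 2-fold higher and MIR143, MIR145 and MIR24-1 were lower, where 7.06% and 10.7% of all features passed. The median log2 ratio of the 12 was -0.19, against -0.03 over all features. At D4 vs D0, 1 gene was higher and 2 were lower, near the shares of all features (10.7% and 9.57%). At D8 vs D0 the counts were 2 and 3, where 3.87% and 4.82% of all features passed. Among the 3 lower genes, MIR23A had an interval of 0.855 to 17.0 that spanned 1. MIR21, MIR143 and MIR145 are on both this list and that for adipocytes, so the 2 sets of counts overlap. MIR29A, of a family that targets collagen mRNAs, had an FPKM of 12.5, 10.4, 6.88 and 10.1. MIR29C had 16, 12, 16 and 3 fragments and was lowest at D8.

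The remaining lists were thinly covered. Of the 5 MIR30 genes, whose mature miRNAs are known to favour adipocyte differentiation, MIR30A alone was reliably expressed, with an FPKM of 1.74, 2.72, 2.77 and 3.80. Of the 6 genes from MIR17 to MIR92A-1 3 were reliably expressed, and none of these was 2-fold different in any of the 5 comparisons. Of 6 imprinted genes listed, MIR335 and MIR127 had a row, each with 1 fragment at D2 and 0 elsewhere. MEST, the host of MIR335, was between 0.546 and 0.771, and MEG3 between 0.163 and 0.277.

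Of 23 miRNA genes usual in other cell types, 4 had a row. MIR133A-1, of skeletal muscle, had 6 fragments at D0 and 0 elsewhere, MIR142, of leukocytes, had 1 at D8, and MIR128-1, of neural cells, had 1, 0, 0 and 3. MIR155, known from activated leukocytes and also from stromal cells, had 24, 13, 0 and 6 at D0, D2, D4 and D8. It was at least 5.94-fold lower at D4 than at D0 by its counting interval. The leukocyte markers PTPRC, CD68 and CSF1R had an FPKM of at most 0.22 in any library.

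Most mRNAs of the proteins that make and load miRNAs were within 2-fold between stages. Of 30 genes listed, 27 had a row and 25 were reliably expressed. At least 2-fold higher were 0, 2 and 0 of them at D2, D4 and D8 vs D0, with backgrounds of 7.06%, 10.7% and 3.87%, and lower were 1, 2 and 1, with backgrounds of 10.7%, 9.57% and 4.82%. None passed at D4 vs D2, where 4.53% of all features were higher and 1.49% lower. At D8 vs D4, AGO3, TNRC6B and NCBP2 were lower, which is 3 of 25, near the 10.4% of all features. None was higher there, with a background of 4.75%. DROSHA had an FPKM of 2.34, 2.26, 2.69 and 2.12, DGCR8 of 14.2, 10.4, 11.1 and 10.7, and DICER1 of 5.10, 3.52, 4.46 and 3.08. All 3 stayed within 2-fold over the 4 libraries. PRKRA, a partner of DICER1, was lower than D0 in each of the 3 comparisons, with 9.33 at D0 and 3.52, 4.42 and 4.51 afterwards. At D4, TNRC6B and ADAR were higher and AGO4 was lower than at D0, besides PRKRA.

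Lastly, the order of the 4 stages was compared for the 73 miRNA genes with at least 10 fragments in one library. In 21 of them (28.8%), both D2 and D4 were below both D0 and D8, against 22.4% of all features with that many fragments. In 17 (23.3%), both were above, against 30.6% of all features. The first group holds MIR21, MIR143, MIR24-1, MIR24-2, MIRLET7C, MIR100, MIR99A, MIR98, MIR450A and MIR450B, and the second MIR199A-1, MIR19A, MIR671, MIR193A and MIR26A. The order was taken without a condition on the size of a difference. MIR21 was only 1.05-fold lower at D2 than at D0, with an interval of 0.971 to 1.14 that spanned 1. MIR671 (chr18:5989378-5989457, minus strand, no containing gene) had an FPKM of 20.9, 39.6, 30.4 and 17.3 at D0, D2, D4 and D8.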

How the data were processed

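The authors removed low-quality and adaptor reads, aligned the rest to the pig genome (Sus scrofa 11.1) with HISAT2 2.0.5, and deposited FPKM for genes in a column that also holds the values of circRNAs, which were not used here. The program that counted fragments, its handling of fragments shared by overlapping features and any removal of duplicates are not given in the sources used here. A fragment on a hairpin inside a host may therefore belong to the host transcript.

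Library totals were found as the numbers that turn FPKM multiplied by gene span into whole fragments. For features other than miRNA genes a length was searched from 50 to 40000 bases. This can give a whole fraction of the true number, and 11 features gave none. In simulated data for all 4 libraries, run on 4037 genes, the totals were exact, as were 93.7% of the genes and 100% of 149 miRNA genes. The simulated miRNA genes had their span as length, so the last share follows from that setting once the totals are found. Ratios were taken on log2(FPKM + 0.01). Intervals of ratios are exact binomial (Clopper-Pearson) and those of single values Poisson, at 95%. Levels of genes were compared per length, as FPKM.

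The members, gene lists and naming rule were chosen with earlier results of these data known. Genes named were the 12 highest by mean FPKM, up to 6 rises and 6 falls against D0, the lists, their clusters and their hosts. Genes outside that rule, such as MIR100, MIR423 and MIR455, were chosen after their values were seen. Alternatives were other pseudocounts, filters and scalings. Sequences were not analysed here. Python 3.11.15, numpy 2.4.6, pandas 2.3.3 and scipy 1.17.1 were used.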

Additional observations from a re-analysis of the deposited data

How the results depend on the processing

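Each stage is 1 library, so no replicate could be left out. No paired analysis was possible because each stage has a single pooled library. The number of miRNA genes at least 2-fold different was 18 at D2 vs D0, 14 at D4 vs D2, 16 at D8 vs D4, 18 at D4 vs D0 and 19 at D8 vs D0. Without the filter on FPKM it was 78, 77, 86, 90 and 72 of all 153 genes, most of them with few fragments. With a pseudocount of 1 it fell to 9 at D4 vs D2, and by the counting rule, chosen after seeing the data, it was 28 at D2 vs D0 and 31 at D4 vs D0. Hairpins that moved with their host numbered 33, 29, 40, 37 and 30 without the filter, out of 58, 67, 68, 65 and 57 hairpins with fragments in at least one library of the pair, in the same order of comparisons. The other hairpins of the 77 were at 0 in both libraries and had no direction. Scaling by the median ratio over all features used factors of 1.03, 1.002, 1.06 and 0.923 for D0, D2, D4 and D8. It moved the median log2 ratio of the 52 genes to 0.32 at D8 vs D4, 0.26 at D8 vs D0 and -0.06 at D4 vs D2, the last with a change of sign. The summed CPM of all miRNA genes had log2 ratios to D0 of 0.06 at D2, -0.24 at D4 and -0.39 at D8. These rest on MIR6782. Without it, chosen after seeing the data, they were -0.0303, -0.0826 and 0.0966, and without MIR6782, MIR21 and MIR9810 they were -0.0737, 0.0649 and 0.0336. The depth limits the 62 genes with under 10 fragments over the 4 libraries to wide intervals.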

Other observations

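Several thinly covered miRNA genes had their highest value at D4. MIR17 had 0, 2, 21 and 5 fragments at D0, D2, D4 and D8, MIR10B had 2, 8, 23 and 2, and MIR423, inside NSRP1, had 5, 12, 27 and 1. MIR125A had 13 fragments at D4 and 0 in the other libraries, and MIR9860 had 0, 9, 13 and 0. The counting intervals of the D4 to D2 ratios of MIR9860, MIR423 and MIR10B spanned 1. The D4 library was the one with the most genes above 0 in that library alone, which numbered 20, against 7 at D0, 9 at D2 and 11 at D8. D0, with the largest library total, had the fewest. The same count was not made over all features, so whether it is particular to miRNA genes was not tested.

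MIR9811 (chr3:80615747-80615838, minus strand, no containing gene) had an FPKM of 19.2, 4.74, 6.72 and 14.3 at D0, D2, D4 and D8. At D2 it was 4.04-fold lower than at D0 (2.60 to 6.53), which is a fall of the size of that of MIR143. MIR374A, in the lncRNA LOC102165633 on the X chromosome, had 10.6, 9.32, 2.86 and 7.62, and was low at D4 only. The lncRNA was at 0.808, 0.791, 0.514 and 1.23 and likewise lowest at D4. Other hairpins in this lncRNA had other courses. MIR545 had 3.19, 0.230, 1.36 and 0.702 at D0, D2, D4 and D8, and MIR421 had 3.06, 2.33, 2.41 and 5.45. Both were lowest at D2. MIR374B had 0.166, 0.227, 1.34 and 0, with its highest value at D4.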
